A study of Mus musculus with 12 samples.

Results

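The FOS and JUN families, ATF3, EGR1 and MYC are transcription factors whose genes belong to the immediate early and AP-1 response of animal cells. Their transcripts were followed in RNA sequencing of mouse prostate organoids through the rows of the deposited expression table named Fos, Fosb, Fosl1, Fosl2, Jun, Junb, Jund, Atf3, Egr1 and Myc. All 10 genes were found, 10 of the 24674 genes in the table. Their rows were matched by name, and the 10 were chosen with earlier results of these data known. The organoids were grown from basal cells of wild-type C57BL/6 prostate, taken by the study's methods from adult male C57BL/6J mice. Basal cells line the base of the prostate gland and in organoid culture can give rise to luminal cells. All 4 groups shared this genotype, strain and culture, and each held 3 samples: Vehicle, UK5099, an inhibitor of the mitochondrial pyruvate carrier, Butyrate, an inhibitor of histone deacetylases, and UK5099 + Butyrate together. Doses and times are not in the sample labels and are not printed here. The labels do not say whether replicates came from separate animals or cultures, so the p-values measure only the spread between these samples, which may be technical.

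AP-1 is a dimer of basic leucine zipper proteins. JUN proteins (c-JUN, JUNB, JUND) pair with each other or with FOS proteins (c-FOS, FOSB, FRA-1 from Fosl1, FRA-2 from Fosl2), FOS proteins need such a partner to bind DNA, and ATF3, a stress-induced member of the ATF family, can pair with JUN and often represses. These dimers bind the AP-1 element and the related cyclic AMP response element. EGR1 is a zinc finger factor induced by growth factors through ERK signalling, and MYC, with its partner MAX, drives ribosome production and biosynthesis. In epithelia the immediate early genes respond within minutes to growth factors, stress and wounding, also during tissue dissociation, and FRA-1 and FRA-2 are known for their part in keratinocyte differentiation and matrix protease expression. Inhibition of histone deacetylases is known to alter the induction of several of these genes.

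Recovered fragments came to between 33251841 and 43498956 per sample. The coefficient of variation of the 10 transcripts within a group ran from 0.87% to 7.61%, with a median of 2.46%. Replicate 1 of UK5099 and of UK5099 + Butyrate stood farther from the other replicates of its group than any other sample did (chi-square per degree of freedom 6.29 to 6.64, against 1.93 to 2.65 for the other pairs), and leaving out either did not change the number of these transcripts past the test's limits in any comparison. The basal markers Krt5, Krt14, Trp63 and Itga6 had sums of 3545 to 3585 TPM in the Vehicle samples, 9805 to 10302 in the UK5099 samples, 4519 to 4709 in the Butyrate samples and 8114 to 8364 in those given both. The luminal markers Krt8, Krt18, Krt19 and Prom1 summed to 4139 to 4309, 2330.03 to 2489, 2243 to 2283 and 1389.5 to 1577 TPM in the same order. The basal sum hides a split with Butyrate, where 2 genes were higher and 2 lower at a limma adjusted p under 0.01. Krt5 went from 1848 to 3152 TPM and Trp63 from 5.23 to 8.46. Krt14 went from 1676 to 1391 TPM and Itga6 from 38.0 to 33.1. By the median of ratios described below, 3 were higher and 0 lower. The sums of both lists moved with the treatments in the same samples as the values below, and their part in those values was not tested. In bulk samples, fewer cells of a type and less RNA per cell cannot be told apart. The defining leukocyte markers Ptprc and Csf1r and the endothelial marker Pecam1 stayed at or below 0.0277 TPM as group means. Of the other listed non-epithelial genes, Cd68, a lysosomal protein used as a macrophage marker, had group means of 24.2, 30.2, 67.4 and 91.7 TPM, and the matrix proteoglycan gene Dcn 0.762, 1.22, 9.51 and 1.41 TPM.

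The DNA just upstream of these genes is shown for Fos, Jun and Atf3, since Fos rose most among the AP-1 genes with butyrate, Jun had the highest level and Atf3 fell most with UK5099. The sequences are the 250 bases before the annotated start, 5′ to 3′ along the gene, from RefSeq on GRCm38.p6, where entries of 7 of the 10 genes were used. Myc, Fosl1 and Egr1 are named only.
Fos, chr12:85473640-85473889, plus strand: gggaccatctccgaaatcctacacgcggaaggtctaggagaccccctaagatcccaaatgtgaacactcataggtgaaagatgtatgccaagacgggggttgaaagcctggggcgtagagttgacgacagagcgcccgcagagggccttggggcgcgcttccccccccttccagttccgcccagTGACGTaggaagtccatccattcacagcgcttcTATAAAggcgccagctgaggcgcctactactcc
Jun, chr4:95052223-95052472, minus strand: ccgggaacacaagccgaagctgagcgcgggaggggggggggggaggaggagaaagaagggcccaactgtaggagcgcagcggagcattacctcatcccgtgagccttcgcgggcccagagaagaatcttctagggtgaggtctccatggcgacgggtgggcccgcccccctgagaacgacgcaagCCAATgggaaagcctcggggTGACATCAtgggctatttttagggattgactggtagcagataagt
Atf3, chr1:191183334-191183583, minus strand: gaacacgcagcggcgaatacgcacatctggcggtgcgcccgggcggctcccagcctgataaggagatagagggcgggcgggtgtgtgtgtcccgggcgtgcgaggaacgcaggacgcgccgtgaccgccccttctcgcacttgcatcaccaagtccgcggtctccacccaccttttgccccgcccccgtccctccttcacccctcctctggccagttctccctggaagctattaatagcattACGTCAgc
Capitals mark matches of fixed letters searched on both strands, which are descriptions and not shown binding sites. In Fos they are TGACGT, the core of the cyclic AMP response element, 66 to 61 bases before the start, and, 33 to 28 bases before it, the core promoter letters TATAAA. In Jun they are CCAAT, 65 to 61 bases before the start, and TGACATCA, the variant element known from the Jun promoter that JUN and ATF dimers bind, 45 to 38 bases before it. In Atf3 they are ACGTCA, which is TGACGT read on the other strand, 8 to 3 bases before the start. Of 32851 mouse promoters of the same length, TGACGT was present in 6.47%, TGACATCA in 2.93%, TATAAA in 12.4% and CCAAT in 33.8%. The AP-1 element TGANTCA, present in 6.75% of promoters, the full element TGACGTCA (1.55%, which contains TGACGT) and the CArG box bound by SRF (1.47%) had no match in these windows for any of the 7 genes. The GC box GGGCGG, in 32.7% of promoters, matched in Fos, Jun, Atf3, Fosb and Fosl2 and is left in lower case. DNA farther upstream than 250 bases was not searched, so an element there would not be seen.

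Levels of different genes were compared per exonic length, because the deposited values divide by the whole genomic span, introns included. On that scale the JUN family was the more abundant partner in Vehicle, with Jun at 606 ± 7.7, Jund at 502 ± 4.6 and Junb at 497 ± 7.1 TPM (SD, n = 3). Atf3 followed at 318 ± 4.4 and Egr1 at 221 ± 4.4 TPM. The exonic scale takes every recovered fragment as exonic, which was not tested. Atf3 has the largest gap between the lengths, 47744 bp of span against 2154 exonic bp. The FOS family was lower, with Fos at 145 ± 4.0, Fosl2 at 97.7 ± 1.4, Fosb at 95.8 ± 3.3 and Fosl1 at 30.3 ± 0.51 TPM, and Myc stood at 91.3 ± 1.9 TPM. Of the 15927 protein-coding genes, those with an exonic length were ranked from the highest, and Jun was at 148 in Vehicle and Fosl1 at 4305. With UK5099 the rank of Fosl1 was 1480, and that of Atf3 went from 310 to 1003. With Butyrate the rank of Fos went from 835 to 265 and that of Myc from 1401 to 384.

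The values by sample below are TPM as deposited, and changes are differences of log2(TPM + 1) from limma, given with their standard error. A transcript is said to rise or fall where the Benjamini-Hochberg adjusted p over all 24674 genes was under 0.01, and to be called where the difference was also larger than 1 on the log2 scale in size, the limits of the study's methods. The median gene of those averaging 1 TPM or more moved by -0.12 with UK5099, -0.30 with Butyrate and -0.41 with both, on the deposited scale. Scaling the samples by the median of ratios sets that median to 0.01, 0.00 and 0.00, so differences relative to the typical gene are given from that scaling where they bear on a statement. The range of a difference over all scalings refers to the deposited values and 5 others.

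**Figure D1:**
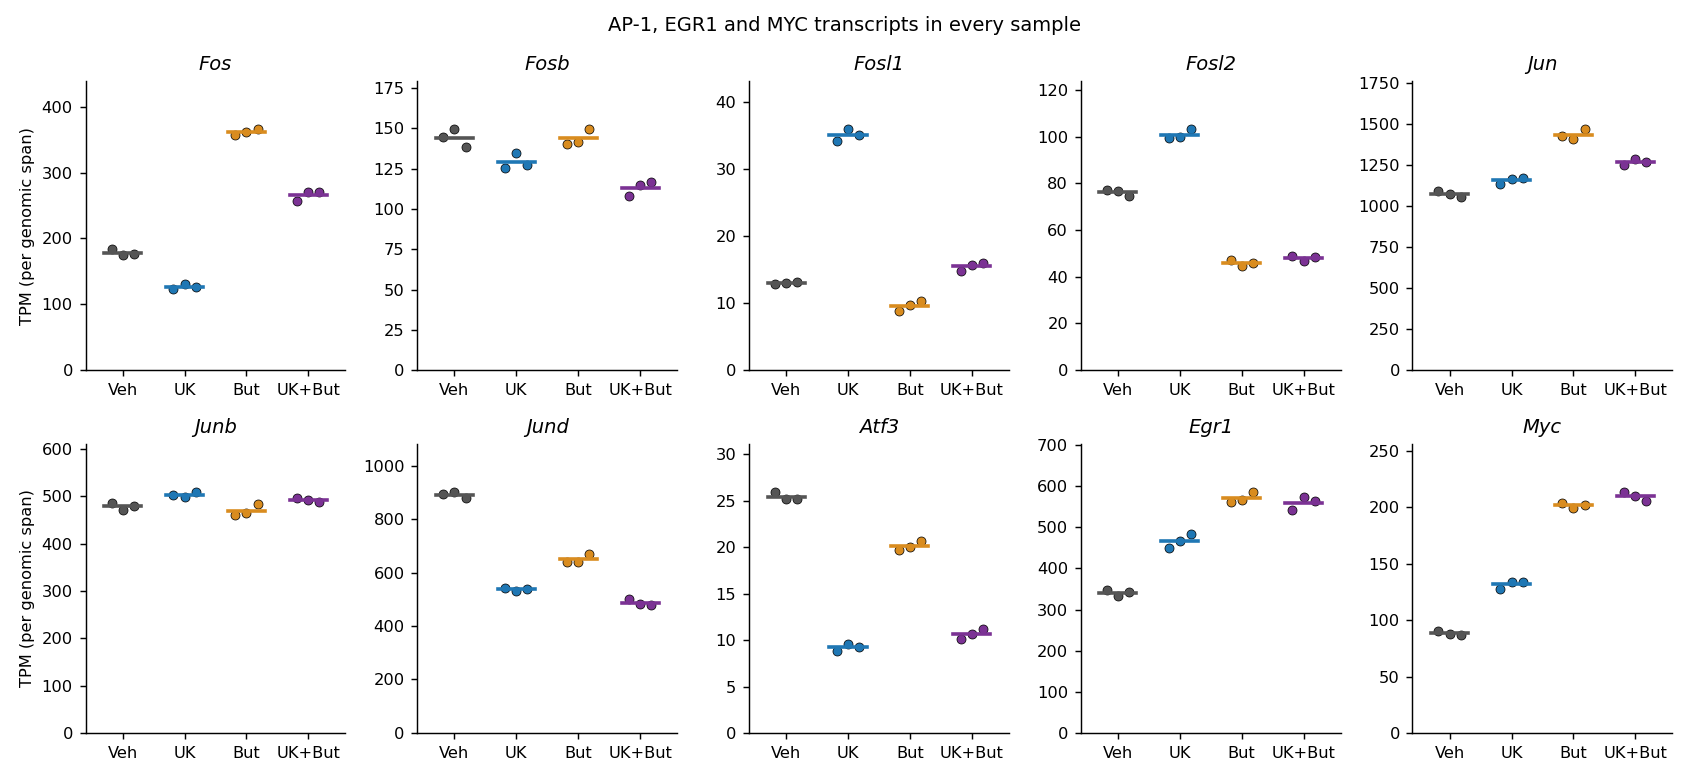
Level of each of the 10 transcripts in every sample, in TPM per genomic span (vertical axes, each starting at 0), for Vehicle (Veh), UK5099 (UK), Butyrate (But) and UK5099 + Butyrate (UK+But). Points are samples and bars are means of 3. Fos and Myc sit highest in the butyrate groups, Fosl1 with UK5099 alone, and Atf3 lowest in both UK5099 groups.

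Fos lies on chromosome 12 at 85520664 to 85524047 on the plus strand (GRCm39, as for all positions of expressed genes here). It encodes c-FOS, the classical immediate early factor. Its level was 184, 174 and 176 TPM in the Vehicle samples, 124, 130.3 and 126 with UK5099, 358, 362 and 366 with Butyrate, and 256, 271 and 271 with both. No 2 groups overlapped, and the order from low to high was UK5099, Vehicle, the combination and Butyrate. Fos fell with UK5099, by -0.49 ± 0.03 (SE, limma adjusted p = 1.24e-06), and rose with Butyrate by 1.02 ± 0.03, or 2.02-fold (limma adjusted p = 4.36e-09). It was lower with the combination than with Butyrate alone (-0.44, limma adjusted p = 4.93e-06) and higher than in Vehicle (0.57, limma adjusted p = 9.3e-08). Over all scalings the Butyrate difference ran from 1.02 to 1.37 and the UK5099 difference from -0.49 to -0.34.

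Fosl1, on chromosome 19 at 5497575 to 5505974, plus strand, encodes FRA-1, an AP-1 subunit that accumulates under sustained ERK signalling. It went the other way from Fos in both single treatments. The Vehicle samples held 12.9, 12.98 and 13.2 TPM, the UK5099 samples 34.2, 36.0 and 35.1, the Butyrate samples 8.83, 9.70 and 10.3, and those with both 14.8, 15.7 and 15.9. The UK5099 samples stood apart at the top, and the 4 groups did not overlap. Fosl1 rose with UK5099 by 1.37 ± 0.05, or 2.58-fold (limma adjusted p = 3.27e-08), and fell with Butyrate by -0.40 ± 0.05 (limma adjusted p = 4.58e-05). Relative to the typical gene the Butyrate difference was -0.07 (limma adjusted p = 0.23), so that fall rests on the deposited scale. Between UK5099 and the combination it fell by -1.13, and from -1.13 to -0.77 over all scalings. Fosl1 had the fewest fragments of the 10 genes, 691 to 2439, and none of its 6 values under 1000 fragments was a whole number.

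Fosl2, on chromosome 5 at 32293145 to 32315186, plus strand, encodes FRA-2. Its samples held 77.1, 76.8 and 74.4 TPM in Vehicle, 99.4, 99.8 and 103 with UK5099, 47.1, 44.5 and 46.0 with Butyrate, and 48.8, 46.6 and 48.4 with both. UK5099 was highest and the butyrate groups were lowest and overlapped each other. Fosl2 rose with UK5099 (0.40 ± 0.03, limma adjusted p = 2.03e-06) and fell with Butyrate (-0.72 ± 0.03, or 1.65-fold down, limma adjusted p = 1.61e-08). It did not pass the test between the combination and Butyrate (0.06, 95% interval 0.00 to 0.12, limma adjusted p = 0.1), although relative to the typical gene that difference was 0.21 (limma adjusted p = 8.56e-05). Fosl1 and Fosl2 thus shared the sign of their differences in both single treatments over all scalings, though the Fosl1 fall with Butyrate passed the test on the deposited scale and not by the median of ratios.

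Fosb, on chromosome 7 at 19036621 to 19043976, minus strand, is the second classical FOS gene. Its levels were 145, 149.5 and 139 TPM in Vehicle, 125, 135 and 127 with UK5099, 140.3, 142 and 149 with Butyrate, and 108, 115 and 117 with both. Vehicle and Butyrate overlapped, and the combination was lowest. Its UK5099 difference missed the threshold (-0.16 ± 0.04, limma adjusted p = 0.014), and that with Butyrate was -0.01 (95% interval -0.10 to 0.09, limma adjusted p = 0.943). With both it fell by -0.35 ± 0.04 (limma adjusted p = 5.42e-05). These directions follow the scaling: by the median of ratios Fosb rose with Butyrate by 0.35 (limma adjusted p = 4.45e-05) and with both by 0.16 (limma adjusted p = 0.00653).

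Jun, a single-exon gene on chromosome 4 at 94937271 to 94940459, minus strand, encodes c-JUN, the main partner of c-FOS. The samples held 1095, 1074 and 1058 TPM in Vehicle, 1139, 1164 and 1169.6 with UK5099, 1428, 1409.7 and 1470.1 with Butyrate, and 1254, 1286 and 1272 with both. The groups did not overlap, with Vehicle lowest and Butyrate highest. Jun rose in all 3 treatments, by 0.11 ± 0.02 with UK5099 (limma adjusted p = 0.00209), 0.42 ± 0.02 with Butyrate (limma adjusted p = 9.11e-08) and 0.24 ± 0.02 with both (limma adjusted p = 3.19e-06). The combination lay below Butyrate by -0.18 (limma adjusted p = 0.000125), a difference that was -0.03 relative to the typical gene (limma adjusted p = 0.307).

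Junb, on chromosome 8 at 85701113 to 85705347, minus strand, encodes a JUN protein that often restrains c-JUN. Its range was the narrowest, with 485, 472 and 480.2 TPM in Vehicle, 503, 499 and 509 with UK5099, 461, 465 and 483 with Butyrate, and 496, 492 and 487 with both. Vehicle and Butyrate overlapped, and UK5099 was highest. None of its differences from Vehicle passed the test on the deposited scale (0.07 with UK5099, 95% interval 0.03 to 0.12; -0.03 with Butyrate, -0.07 to 0.01; 0.04 with both, -0.01 to 0.08). Relative to the typical gene, Junb rose with UK5099 by 0.22 (limma adjusted p = 1.8e-05), with Butyrate by 0.33 (limma adjusted p = 7.18e-07) and with both by 0.55 (limma adjusted p = 1.48e-08).

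Jund, a single-exon gene on the same chromosome at 71151599 to 71153265, plus strand, encodes the JUN protein that is present in resting cells and is often linked to slower growth. It had 893, 902 and 880.3 TPM in Vehicle, 543, 533 and 539 with UK5099, 639, 639 and 671 with Butyrate, and 503, 484 and 478 with both. Vehicle was highest and the 4 groups did not overlap. Jund fell with UK5099 (-0.73 ± 0.02, or 1.65-fold down, limma adjusted p = 3.04e-08), with Butyrate (-0.46 ± 0.02, limma adjusted p = 1.76e-07) and with both (-0.87 ± 0.02, limma adjusted p = 1.61e-09). Relative to the typical gene the Butyrate difference was -0.10 (limma adjusted p = 0.0124), while with UK5099 it ran from -0.73 to -0.57 over all scalings. Between UK5099 and the combination it fell by -0.14 as deposited and rose by 0.21 by the median of ratios.

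Atf3 spans 190902493 to 190950236 on chromosome 1, minus strand. At 47744 bp against 2154 exonic bp it is the longest gene here, so its deposited TPM lie far below its level per exonic length. The Vehicle samples held 26.0, 25.2 and 25.2 TPM, the UK5099 samples 8.79, 9.58 and 9.31, the Butyrate samples 19.7, 20.1 and 20.7, and those with both 10.1, 10.7 and 11.2. Both groups that received UK5099 were below both groups that did not. Atf3 fell with UK5099 by -1.37 ± 0.04, or 2.59-fold (limma adjusted p = 9.84e-09), and with both by -1.18 ± 0.04 (limma adjusted p = 3.53e-09). With Butyrate it fell by -0.32 ± 0.04 as deposited (limma adjusted p = 4.95e-05) and differed by 0.02 by the median of ratios (limma adjusted p = 0.676). The call with both drugs was lost under the median of ratios (-0.70), quantile normalisation (-0.71) and voom (-0.87), where the fall was smaller than 1 but still passed the adjusted p.

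Egr1, on chromosome 18 at 34992876 to 34998037, plus strand, had 346, 334 and 343 TPM in Vehicle, 449.5, 466 and 483 with UK5099, 561, 566 and 586 with Butyrate, and 542, 573 and 563 with both. Every treated sample was above every Vehicle sample, and Butyrate and the combination overlapped. Egr1 rose by 0.45 ± 0.03 with UK5099 (limma adjusted p = 2.99e-06), 0.74 ± 0.03 with Butyrate (limma adjusted p = 3.98e-08) and 0.71 ± 0.03 with both (limma adjusted p = 2.96e-08). Scaled by the median of ratios the last 2 values were 1.10 and 1.22, which would make Egr1 a called gene in both. Adding UK5099 to Butyrate moved it by -0.03 (95% interval -0.10 to 0.04, limma adjusted p = 0.554), and by 0.12 by the median of ratios (limma adjusted p = 0.00974).

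Myc lies on chromosome 15 at 61857240 to 61862223, plus strand. Its samples held 90.8, 87.5 and 86.6 TPM in Vehicle, 128, 134 and 134 with UK5099, 204, 199 and 202 with Butyrate, and 214, 209.9 and 206 with both. The groups did not overlap and rose in that order. Myc rose with UK5099 by 0.58 ± 0.02, or 1.49-fold (limma adjusted p = 1.41e-07), with Butyrate by 1.18 ± 0.02, or 2.27-fold (limma adjusted p = 7.15e-10), and with both by 1.24 ± 0.02, or 2.36-fold (limma adjusted p = 2.51e-10). Over all scalings these ranges were 0.58 to 0.73, 1.18 to 1.54 and 1.24 to 1.74. The combination exceeded Butyrate by 0.06 (95% interval up to 0.11, limma adjusted p = 0.126), and by 0.21 by the median of ratios (limma adjusted p = 0.000166).

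**Figure D2:**
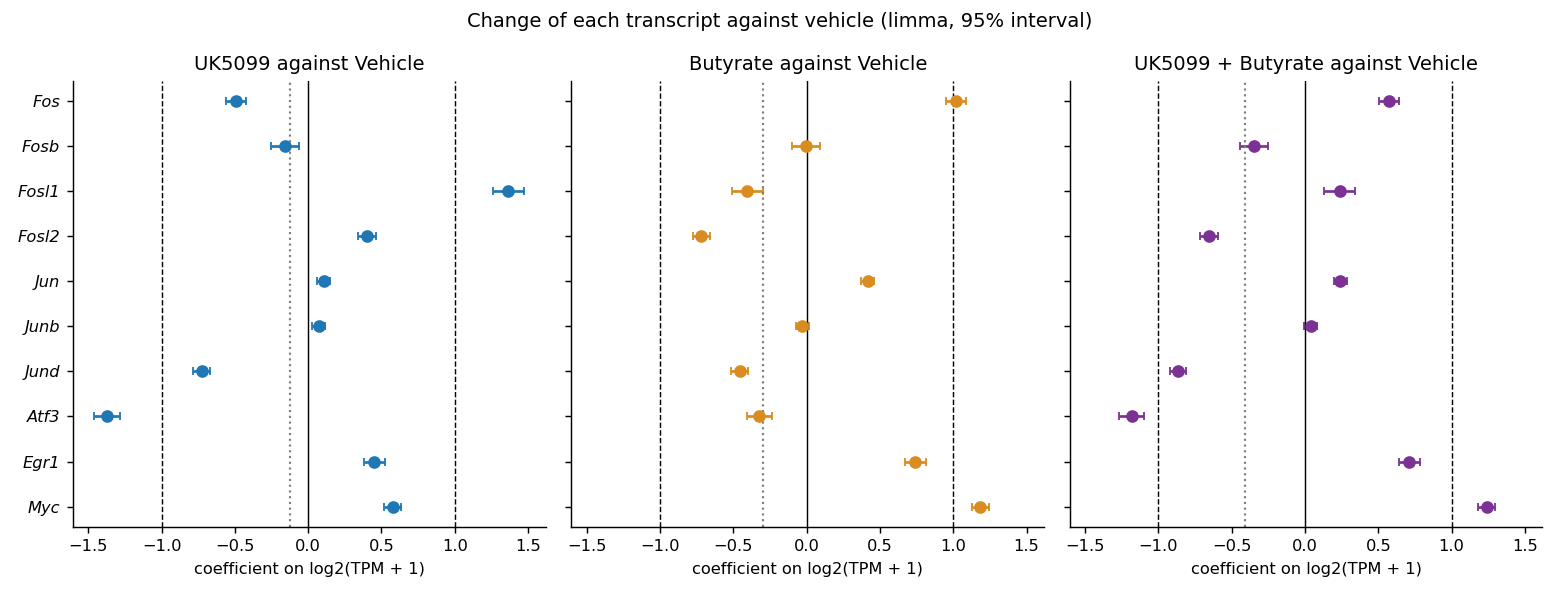
Difference of each transcript from Vehicle on the log2(TPM + 1) scale (horizontal axis) with its 95% interval from limma, for UK5099, Butyrate and their combination. Dashed lines mark -1 and 1, the limit for a call, and the dotted line the median of genes averaging 1 TPM or more (-0.12, -0.30 and -0.41). Fosl1 and Atf3 pass the limit with UK5099, Fos and Myc with Butyrate, and Atf3 and Myc with both.

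Inhibition of pyruvate import was asked about through UK5099 against Vehicle. In that comparison 2 of the 10 genes were called, Fosl1 higher and Atf3 lower, where 1.84% of all genes were (0.928% higher and 0.912% lower). At the adjusted p alone 8 of the 10 passed (33.0% of all genes). Of these 5 rose (Fosl1, Fosl2, Jun, Egr1 and Myc), against 8.24% of all genes, and 3 fell (Fos, Jund and Atf3), against 24.7%. Among the 13345 genes averaging 1 TPM or more, 1637 rose and 5088 fell. The samples of the 2 groups did not overlap for 6 genes that were higher and 4 that were lower, against 14.1% and 35.1% of all genes. The FOS family thus split, with Fos down and both FRA genes up.

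Butyrate against Vehicle asked for the effect of histone deacetylase inhibition. Again 2 of the 10 were called, Fos and Myc, both higher, where 3.54% of all genes were called (1.13% higher and 2.42% lower). At the adjusted p alone 8 passed (45.6% of all genes), of which 4 rose (Fos, Jun, Egr1 and Myc; 9.70% of all genes) and 4 fell (Fosl1, Fosl2, Jund and Atf3; 35.9% of all genes). This split depends on the scaling, with 6 higher and 1 lower by the median of ratios. As deposited, 1555 of the 13345 genes averaging 1 TPM or more rose and 7681 fell. Groups did not overlap for 4 genes that were higher and 4 that were lower, against 15.9% and 44.2% of all genes.

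With both drugs, 2 of the 10 were called against Vehicle, Myc higher and Atf3 lower, where 6.42% of all genes were (1.79% higher and 4.63% lower). At the adjusted p 9 passed (51.0% of all genes), of which 5 rose (Fos, Fosl1, Jun, Egr1 and Myc; 10.1% of all genes) and 4 fell (Fosb, Fosl2, Jund and Atf3; 40.8% of all genes), and by the median of ratios 7 rose and 3 fell. On that scaling 3 genes were called, Fos (1.08), Egr1 (1.22) and Myc (1.74), and Atf3 (-0.70) was not. As deposited, 1500 of the 13345 genes averaging 1 TPM or more rose and 8561 fell. All 10 separated the groups, 6 higher and 4 lower, against 15.6% and 49.1% of all genes.

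The Butyrate samples were also set directly against the UK5099 samples. Here 4 genes were called (1.86% of all genes, 0.681% higher and 1.18% lower), Fos 2.84-fold higher (1.51 ± 0.03, limma adjusted p = 1.22e-09), Atf3 2.07-fold higher (1.05 ± 0.04, limma adjusted p = 3.44e-08), Fosl1 3.41-fold lower (-1.77 ± 0.05, limma adjusted p = 5.7e-09) and Fosl2 2.17-fold lower (-1.12 ± 0.03, limma adjusted p = 3.24e-09). The Fosl2 call was lost under 4 scalings, where its difference was -0.95 to -0.87. At the adjusted p alone 9 of the 10 differed, against 37.5% of all genes, with Fosb as the exception (0.15, limma adjusted p = 0.015). Of the 9, 6 were higher (9.97% of all genes) and 3 lower (27.5%). Among the 13345 genes averaging 1 TPM or more, 1575 were higher and 6090 lower. The samples did not overlap for 7 genes that were higher (17.7% of all genes) and 3 that were lower (36.9%). Fos, Fosl1, Fosl2 and Atf3 kept the direction of this difference over all scalings.

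Adding Butyrate to UK5099 called 3 genes (1.97% of all genes, 0.823% higher and 1.15% lower), Fos higher by 1.06 ± 0.03, Fosl1 lower by -1.13 ± 0.05 and Fosl2 lower by -1.06 ± 0.03. The Fosl1 and Fosl2 calls did not hold under the median of ratios (-0.79 and -0.71), where Myc (1.02) was called with Fos (1.42). At the adjusted p alone 9 passed (43.0% of all genes), 5 of them higher (7.62%) and 4 lower (35.3%). Among the 13345 genes averaging 1 TPM or more, 1045 were higher and 7811 lower. Samples did not overlap for 5 genes that were higher (13.5% of all genes) and 5 that were lower (44.2%). Adding UK5099 to Butyrate called none (0.908% of all genes, 0.551% higher and 0.357% lower) by limma or by voom, while 8 of the 10 had an unadjusted p under 0.05 and 6 an adjusted p under 0.01 (27.5% of all genes). Those 6 were Fos, Fosb, Jun, Jund and Atf3, which fell (22.0% of all genes did), and Fosl1, which rose by 0.64 ± 0.05 (limma adjusted p = 7.7e-06), as did 5.52% of all genes. Of the 13345 genes averaging 1 TPM or more, 990 rose and 4797 fell here. Samples did not overlap for 3 genes that were higher (11% of all genes) and 5 that were lower (36.6%). The largest of them in size was Atf3, at -0.86 ± 0.04 (limma adjusted p = 3.84e-07).

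The makeup of each family, per exonic length, changed with these differences, and is given as a description with no test. Fos made up 39.3% ± 0.89 of the summed FOS family level in Vehicle and 25.7% ± 0.23 under UK5099. Its share was 62.4% ± 0.44 under Butyrate and 55.5% ± 0.42 under the combination (SD, n = 3). Fosl1 and Fosl2, the FRA genes, made up 8.22% and 26.5% in Vehicle, 20.5% and 32.4% with UK5099, 4.75% and 12.5% with Butyrate, and 9.29% and 15.9% with both. With UK5099 alone Fosl2 was the largest share, and in the other 3 groups Fos was. The order of genes depends on the length used. Per genomic span, as deposited, the UK5099 means were 129 TPM for Fosb, 127 for Fos and 101 for Fosl2. The summed FOS family level was 368 ± 5.0, 405 ± 6.4, 510.2 ± 7.2 and 424 ± 13 TPM in the order Vehicle, UK5099, Butyrate and both. In the JUN family, Jund went from 31.3% in Vehicle to 20.5%, 22.0% and 18.3% in the treated groups, and Jun from 37.8% to 44.1%, 48.7% and 47.7%. The ratio of summed JUN to FOS transcripts was 4.36 ± 0.04 in Vehicle and 3.70 ± 0.07, 3.54 ± 0.03 and 3.87 ± 0.12 in the treated groups, so JUN transcripts outnumbered FOS transcripts in every sample. These shares do not depend on how samples are scaled to each other.

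**Figure D3:**
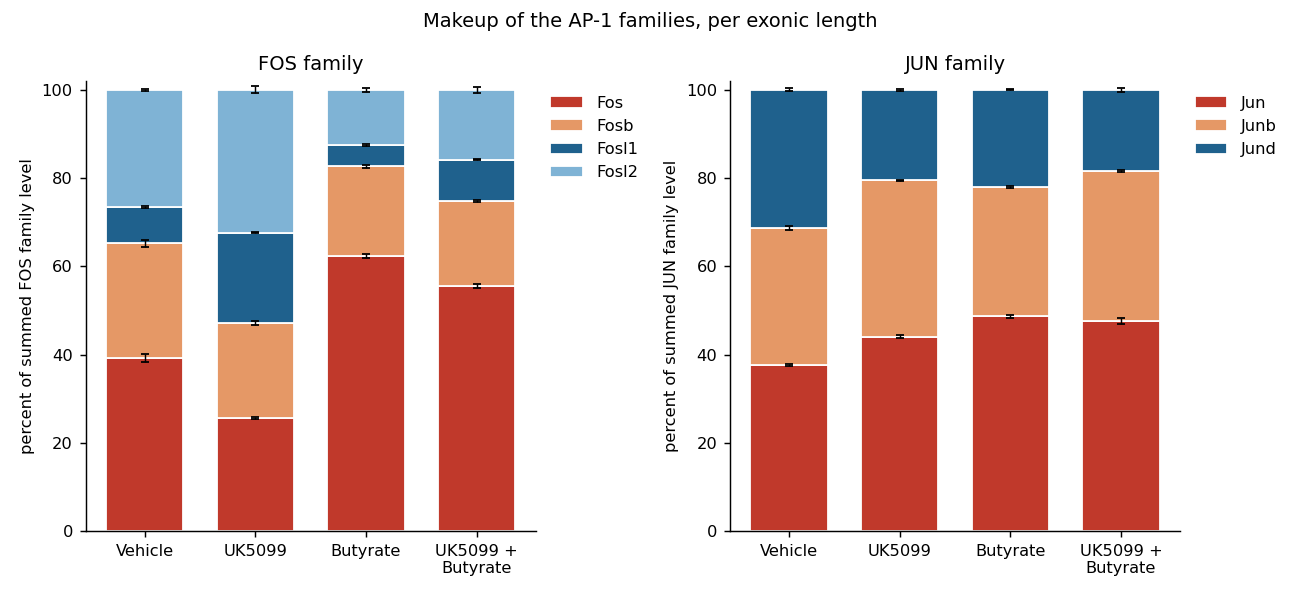
Share of each gene in the summed FOS family (left) and JUN family (right), in percent of TPM per exonic length, as stacked bars of group means (n = 3) with the SD of each share. Fos takes 62.4% of the FOS family with Butyrate and 25.7% with UK5099, and the Jund share is highest in Vehicle at 31.3%.

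Whether the drugs act additively was asked through the interaction, the difference between the combination and the sum of the single effects on the log2 scale. None of the 10 genes was called by limma or by voom (1.01% of all genes were by limma, 0.515% higher and 0.499% lower), while 8 had an unadjusted p under 0.05 and 7 an adjusted p under 0.01, against 13.4% of all genes. Of the 7, 2 were above 0 (7.01% of all genes) and 5 below it (6.38%). Among the 13345 genes averaging 1 TPM or more, 1290 passed above 0 and 1390 below it. For Myc the single differences sum to 1.76 and the combination gave 1.24, an interaction of -0.52 ± 0.04 (limma adjusted p = 1.09e-05). Egr1 (sum 1.19, combination 0.71) and Jun (sum 0.52, combination 0.24) also rose less than the sum. Atf3 (sum -1.70, combination -1.18, interaction 0.51 ± 0.05, limma adjusted p = 0.000148) and Jund (sum -1.18, combination -0.87) fell less than the sum. For these 5 genes both single differences had the same sign, on the deposited scale.

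Among the genes that the drugs moved in opposite directions, Fos lay on the sum. Its single differences of -0.49 and 1.02 sum to 0.53, the combination gave 0.57, and the interaction was 0.05 (95% interval -0.05 to 0.14, limma adjusted p = 0.536). Fosl1 did not lie on it: its single differences of 1.37 and -0.40 sum to 0.96, the combination gave 0.24, and the interaction was -0.73 ± 0.07 (limma adjusted p = 6.32e-05). Fosl2, with a sum of -0.32 and a combination of -0.66, was also below it (interaction -0.34 ± 0.04, limma adjusted p = 0.00021). For Fosb the interaction missed the threshold (-0.18, limma adjusted p = 0.0597), and for Junb it was -0.01 (95% interval -0.07 to 0.06). The 7 interactions that passed, those of Fosl1, Fosl2, Jun, Jund, Atf3, Egr1 and Myc, kept their sign over all scalings.

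**Figure D4:**
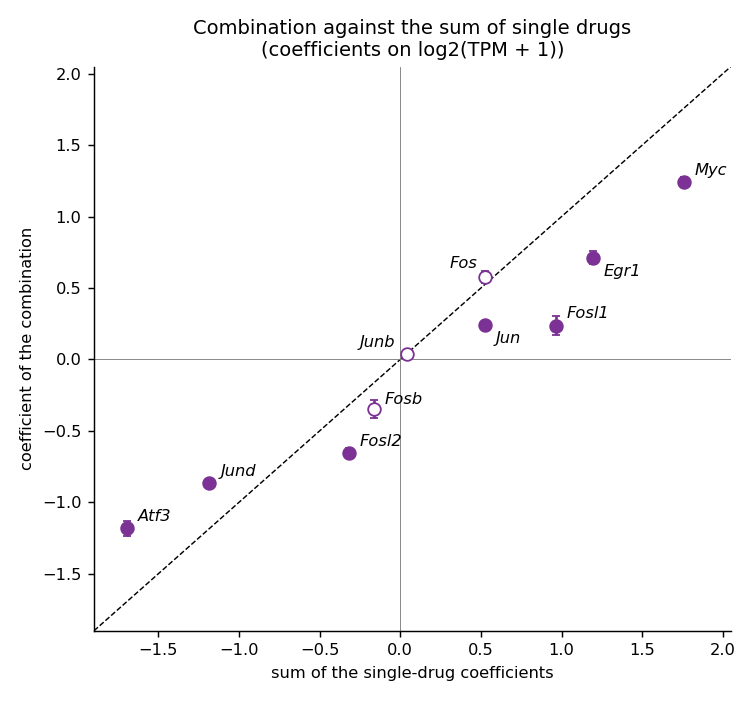
Difference of the combination from Vehicle (vertical axis, with its interaction's standard error) against the sum of the 2 single-drug differences (horizontal axis), both on log2(TPM + 1), for the 10 transcripts. The dashed line is equality, and filled points have an interaction with adjusted p under 0.01. Fos, Fosb and Junb are open, and Myc (1.76 against 1.24) lies below the line.

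Genes around these factors were followed through lists of pathway members. As a background, of the 13345 genes averaging 1 TPM or more 1637 rose and 5088 fell with UK5099, 1555 rose and 7681 fell with Butyrate, and 1500 rose and 8561 fell with both, with medians of -0.12, -0.30 and -0.41. Over all 24674 genes the shares that rose were 8.24%, 9.70% and 10.1%, those that fell 24.7%, 35.9% and 40.8%, and the medians -0.03, -0.07 and -0.11. The other immediate early genes moved both ways. Of 27, 12 rose and 10 fell with UK5099 (median 0.08), 10 rose and 13 fell with Butyrate (median -0.13), and 7 rose and 16 fell with both (median -0.42). By the median of ratios 16 rose and 6 fell with UK5099, and 13 rose and 10 fell in both butyrate groups. Egr3, an EGR family factor, rose in all treatments, from 12.03 ± 0.85 TPM to 44.4 ± 1.3 with UK5099, 23.3 ± 0.39 with Butyrate and 29.5 ± 2.4 with both. Ptgs2, the inducible prostaglandin synthase, went from 564 ± 6.1 TPM to 933 ± 62 with UK5099 and to 198 ± 2.8 with Butyrate and 287 ± 20 with both. It thus had the directions of Fosl1 and Fosl2 in the single treatments. Ccn2, a matricellular growth factor, fell most, from 259 ± 7.7 TPM to 85.1 ± 2.4, 92.6 ± 2.5 and 32.9 ± 2.2, and Gadd45b, a stress sensor, fell from 58.6 ± 2.0 to 31.9 ± 1.5, 33.8 ± 0.66 and 22.1 ± 0.65 TPM. Egr2 and Arc, chosen after their values were seen, rose in all treatments as Egr1 did (Egr2 by 0.82, 1.23 and 1.31, and Arc by 0.34, 1.22 and 0.82).

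The 16 phosphatases, SPROUTY and SPRED proteins and NAB corepressors of the next list damp MAP kinase and EGR signalling. Of them 2 rose and 8 fell with UK5099, 1 and 9 with Butyrate, and 1 and 12 with both (medians -0.14, -0.33 and -0.41). By the median of ratios the split was 5 and 6, 6 and 5, and 5 and 6. The members with the largest falls were MAP kinase phosphatases. Dusp4 went from 26.1 ± 1.4 TPM in Vehicle to 12.7 ± 1.0, 7.47 ± 0.28 and 6.54 ± 0.40, Dusp8 from 17.9 ± 0.24 to 10.01 ± 0.31, 5.41 ± 0.14 and 4.86 ± 0.30, Dusp16 from 5.73 ± 0.23 to 3.18, 2.23 and 1.58, and Dusp10 from 6.35 ± 0.05 to 4.51, 2.03 and 2.01. Each of these fell in all 3 treatments (limma adjusted p at most 2.34e-06). Other MAP kinase phosphatases of the list, chosen after their values were seen, went up. Dusp5 rose in all 3 treatments (0.71, 0.67 and 1.22) and was called with both drugs, and Dusp6 rose with UK5099 (0.56). Among 29 upstream kinases and factors of the ERK, JNK and p38 cascades, 5 rose and 11 fell with UK5099, 1 and 24 with Butyrate, and 2 and 22 with both. By the median of ratios these were 10 and 3, 7 and 12, and 7 and 13. Map2k3, an activator of p38, went from 24.2 ± 0.34 to 12.9 ± 0.21 TPM with Butyrate and 11.3 ± 0.13 with both, and Elk4, a cofactor of SRF, from 27.2 ± 0.55 to 17.2 ± 0.23 and 12.9 ± 0.65.

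Most genes known as AP-1 targets fell with Butyrate. Of 18, 8 rose and 7 fell with UK5099 (median -0.08), 1 rose and 14 fell with Butyrate (median -1.12), and 5 rose and 10 fell with both (median -0.71). By the median of ratios the Butyrate counts were 2 and 13, with a median of -0.77. The matrix metalloproteases had higher levels in UK5099 than in Butyrate samples. Mmp10 went from 12.1 ± 0.52 TPM in Vehicle to 18.2 ± 0.98 with UK5099, 1.22 ± 0.10 with Butyrate and 6.26 ± 0.15 with both, and Mmp9 from 56.6 ± 2.0 to 39.96 ± 2.1, 4.004 ± 0.13 and 17.7 ± 1.6. Mmp3 and Mmp13, chosen after their values were seen, rose with UK5099 (1.98 and 1.23) and fell with Butyrate (-1.15 and -1.67), as Fosl1 did on the deposited scale. Timp1, a metalloprotease inhibitor, fell throughout, from 28.5 ± 0.88 TPM to 12.8 ± 0.71, 1.84 ± 0.32 and 1.11 ± 0.0050, and Spp1, the secreted phosphoprotein osteopontin, from 35.8 ± 1.6 to 7.12 ± 1.2, 0.440 ± 0.11 and 0.823 ± 0.82. Both butyrate means of Spp1 lie below the added 1 TPM, so its differences understate the change. Its samples with both drugs ran from 0.290 to 1.77 TPM. Ivl, a cornified envelope protein chosen after its values were seen, rose in every treatment (2.30, 1.12 and 2.25).

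Other leucine zipper factors outside the 10 genes were followed through 12 ATF, MAF, JDP2 and related genes that were in the table. Of these 1 rose and 5 fell with UK5099, 1 and 10 with Butyrate, and 1 and 8 with both (medians -0.09, -0.35 and -0.45). Scaled by the median of ratios, 5 rose and 3 fell, 2 rose and 6 fell, and 3 rose and 5 fell. Nfil3, a leucine zipper repressor, was the member that was called against Vehicle, going from 11.8 ± 0.11 TPM to 6.02 ± 0.13, 4.96 ± 0.17 and 2.86 ± 0.22. Around MYC, the 11 network factors had 2 that rose and 3 that fell with UK5099, 1 and 7 with Butyrate, and 2 and 9 with both (medians -0.06, -0.15 and -0.38). Scaled by the median of ratios, 3 rose and 3 fell with either drug, and 5 rose and 4 fell with both. Mnt, a repressor that competes with MYC for MAX, went from 28.7 ± 0.80 TPM to 22.4 ± 0.41, 10.8 ± 0.34 and 10.8 ± 0.35. Mxd4, of the same repressor group, went from 15.4 ± 0.64 to 11.5 ± 0.32, 9.42 ± 0.07 and 6.20 ± 0.15 TPM, and Mga, a large MAX partner, from 6.48 to 5.15, 3.47 and 2.66 TPM. Mxd1, a repressor of the Mxd4 group chosen after its values were seen, rose in all treatments, from 11.3 ± 0.51 TPM to 22.8 ± 1.6, 14.6 ± 0.44 and 18.5 ± 1.2.

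Genes known as MYC targets, mostly of ribosome and nucleotide production, did not rise on the deposited scale where Myc did. Of 27, 0 rose and 24 fell with UK5099, 0 and 25 with Butyrate, and 0 and 25 with both by limma (medians -0.32, -0.38 and -0.56). By the median of ratios the counts were 2 and 14, 4 and 12, and 6 and 10, with medians of -0.19, -0.05 and -0.06, so in the butyrate groups the fall was close to that of the typical gene. Tfrc, the transferrin receptor, went from 37.9 ± 0.33 TPM to 21.6 ± 0.97, 18.1 ± 0.35 and 13.6 ± 0.47, and Apex1, a DNA repair endonuclease, from 137 ± 0.87 to 96.1 ± 2.7, 69.6 ± 3.0 and 56.5 ± 0.93. Cad, of pyrimidine synthesis, and Utp20, of ribosome assembly, went from 19.2 and 4.13 TPM to 9.10 and 1.26 with both drugs. The 7 heat-shock induced genes, listed as a sign of acute stress, had sums of 2122 to 2173 TPM in the Vehicle samples, 2734 to 2832 under UK5099, 2519 to 2589.8 under Butyrate and 2566 to 2699 under the combination. Of them 3 rose and 2 fell with UK5099, 3 and 3 with Butyrate, and 3 and 4 with both. Scaled by the median of ratios, 4 rose and 2 fell with UK5099, and 5 rose and 0 fell in both butyrate groups. The small heat-shock protein gene Hspb1 was called in the combination (287 ± 7.9 to 586 ± 28 TPM). Their part in the values of the immediate early genes was not tested.

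**Figure D5:**
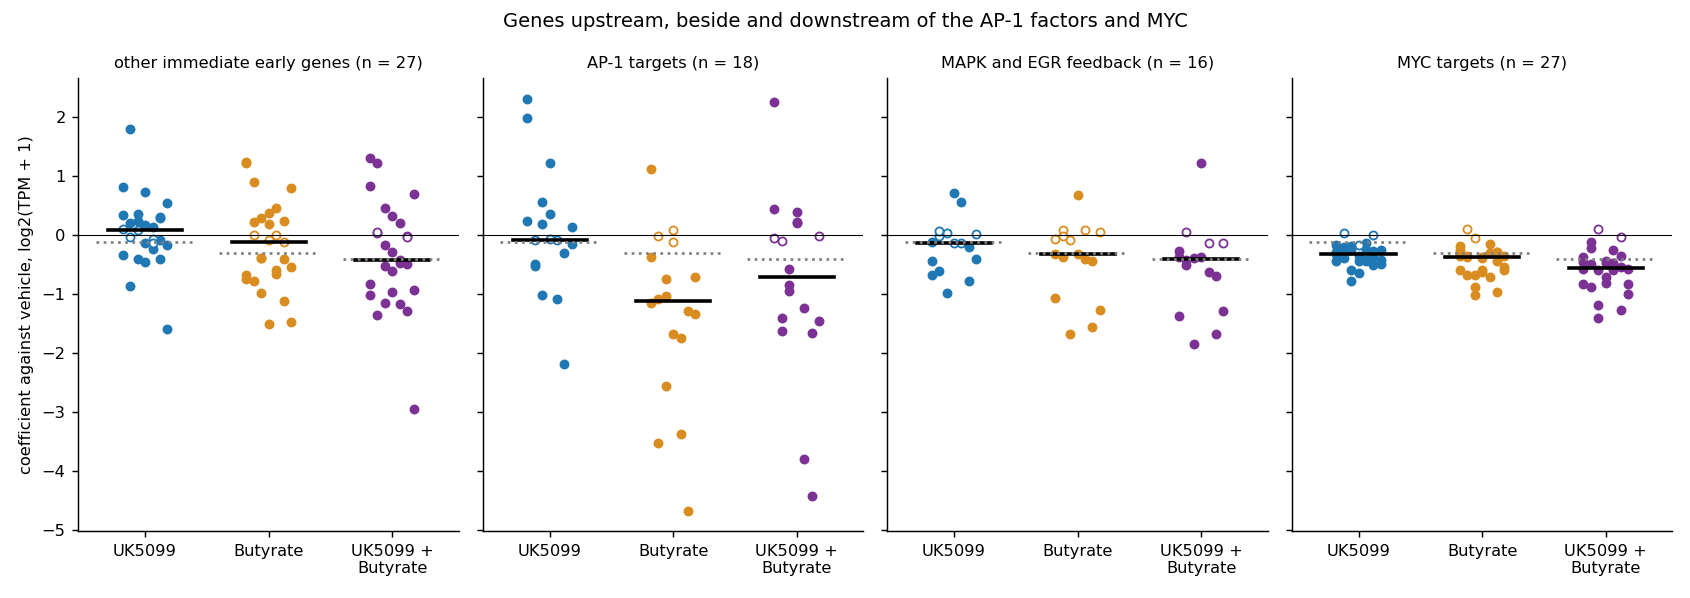
Differences from Vehicle on log2(TPM + 1) (vertical axis) of each gene in 4 lists, for UK5099, Butyrate and both (points spread sideways for legibility). Filled points passed adjusted p under 0.01, bars are list medians and dotted lines the median of genes averaging 1 TPM or more. The AP-1 target median is -1.12 with Butyrate and -0.08 with UK5099, and no MYC target lies above 0 among the filled points.

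The genes whose levels followed each leading factor most closely over the 12 samples were taken from 1291 candidates, by Pearson's r of log2(TPM + 1), as a description: samples of a group share their treatment, so r mostly reflects the 4 group means. For Fos they were Depp1 (r = 0.9945), Ccnd2 (0.9944), a D-type cyclin, and Tst (0.9836), with Ccnd2 means of 22.9, 16.3, 54.4 and 41.2 TPM in Vehicle, UK5099, Butyrate and both. For Fosl1 they were Serpinb5 (0.9908), the serpin maspin, Maf (0.9889), a large MAF leucine zipper factor, and Prxl2a (0.9885). Maf had means of 16.6, 29.0, 13.1 and 18.2 TPM. For Atf3 they were Mfge8 (0.9962), Slc1a5 (0.9906), a glutamine transporter, and Syne4 (0.9888), with Slc1a5 means of 50.6, 23.6, 43.5 and 28.3 TPM. For Myc they were Gas6 (0.9975), a ligand of TAM receptors, Mr1 (0.9959) and Aqp4 (0.9955), a water channel, with Gas6 means of 1.54, 3.80, 9.44 and 10.4 TPM.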

How the data were processed

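RNA sequencing libraries of 12 organoid samples were compared (4 groups of 3, grouped by their labels). The deposited values are TPM per gene made by the authors. The submitters' processing notes name STAR 2.7.9a, Partek and GRCm39, whereas the study's methods describe another alignment and quantification with GRCm38. Most nuclear gene positions in the table are not those of GRCm38, as given below. The other steps that made the table are uncertain. Kits and sequencers also differ between labels and methods. The lengths in the table equal the whole genomic span in 100.0% of genes, so intronic length lowers the TPM of long genes. Gene positions were taken from the table and were not combined with GRCm38, since 25 of 25 mitochondrial genes but only 2.08% of 23888 nuclear genes had the GRCm38 coordinates.

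Differences were fitted with limma 3.58.1 (R 4.3.3) on log2(TPM + 1), with a mean for each of the 4 groups in all 12 samples, and adjusted by Benjamini-Hochberg over 24674 genes, with no filter on low values. Fold changes understate those of low genes. Calls used an adjusted p under 0.01 and a difference over 1 in size. Fragments were recovered from the steps in the TPM. They came out whole within 0.02 for 58.7% to 61.0% of values, so depth is approximate, and voom was run on them. TPM per exonic length used GENCODE M21 lengths of 23913 genes and was added after seeing the data. Other alternatives were pseudocounts, a filter of 1 TPM, 4 scalings, prior settings, a replicate block, fits of the compared groups alone and leaving out each replicate. The model was tested on simulated data. Python 3.11.15, numpy 2.4.6, pandas 2.3.3 and matplotlib 3.10.9 were used.

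The named genes were the 10 factors and, from each other list, up to 4 called genes with the largest difference from Vehicle, averaging 1 TPM or more in some group. The genes named as chosen after their values were seen, and the markers, fall outside this rule. The 10 factors and the lists were chosen with earlier results of these data known. Batf, Batf2 and Phb1 of the lists and Emcn, Lyz2 and Cd3e of the markers were not analysed here. Fibroblast marker sums were 2.27 to 11.0 TPM, smooth muscle at most 1.18, endothelial at most 0.0415, leukocyte 23.9 to 97.1 and neuroendocrine at most 0.645.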

Additional observations from a re-analysis of the deposited data

Results flagged for a closer look

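At an adjusted p under 0.01, the effect of one drug differed with the presence of the other for 7 of the 10 factors, by the limma interaction on log2(TPM + 1). They were Fosl1 (-0.73), Fosl2 (-0.34), Jun (-0.28), Jund (0.32), Atf3 (0.51), Egr1 (-0.48) and Myc (-0.52). Of all genes 13.4% passed, and none of the 7 interactions was larger than 1 in size. Among the other named genes the interaction also passed an adjusted p under 0.01, and was larger than 1 in size for Egr3 (-1.48, limma adjusted p = 4.12e-06), Spp1 (2.44, limma adjusted p = 0.00109), Mmp9 (2.39, limma adjusted p = 2.79e-07) and Mmp10 (1.15, limma adjusted p = 3.47e-06). It was smaller and above 0 for the phosphatase genes Dusp4 (0.82), Dusp8 (0.65), Dusp10 (0.40) and Dusp16 (0.37), for Timp1 (0.67), Tfrc (0.39), Mnt (0.35), Hspb1 (0.31), Utp20 (0.30), Gadd45b (0.27) and Apex1 (0.22), and below 0 for Elk4 (-0.24) and Map2k3 (-0.15). The combination of Mmp9 and Mmp10 lay above the sum of the single differences, and that of Egr3 below it. For Spp1 the butyrate means lie under the added 1 TPM, so its interaction depends on that value. Its samples with both drugs were spread from 0.290 to 1.77 TPM. Single values within groups of 3 samples were not searched for outliers.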

How the results depend on the processing

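Counts of called factors were 2 to 2, 2 to 2, 2 to 2, 0 to 0, 3 to 3, 4 to 4 and 0 to 0 when each replicate was left out, in the order UK5099, Butyrate and both against Vehicle, both against Butyrate, both against UK5099, Butyrate against UK5099 and the interaction. Without a limit on the size they were 8, 8, 9, 6, 9, 9 and 7. For Butyrate against Vehicle the median of ratios and voom gave 3. For both against Vehicle quantile normalisation gave 1 and the median of ratios 3. For both against UK5099, quantile normalisation, protein-coding genes alone and voom each gave 1. Same-numbered samples did not deviate together (r from -0.107 to 0.029 in 18 pairs, 0 over 0.1), and with the replicate number as a block the counts were 2, 2, 2, 0, 3, 4 and 0.

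Signs turned as follows, under the median of ratios, quantile normalisation, protein-coding genes alone, voom and exonic length in this order where several are given; the cause was not tested. With Butyrate, Fosb became 0.35, 0.26, 0.18, 0.31 and 0.11, and -0.0333 to 0.0206 when a replicate was left out, and Junb 0.33, 0.11, 0.16, 0.28 and 0.0881. Atf3 became 0.0203 and 0.0636 under the first 2. With both against Vehicle, Fosb became 0.16 under the median of ratios and 0.0371 under voom. With both against Butyrate, Egr1 became 0.12, 0.0672, 0.0024 and 0.0385. With both against UK5099, Fosb became 0.16, 0.0626, 0.0190 and 0.11, Junb 0.32, 0.0741, 0.17, 0.27 and 0.0698, and Jund 0.21 under the median of ratios, 0.0675 with protein-coding genes and 0.16 with voom. For Butyrate against UK5099, Junb became 0.10 under the median of ratios, 0.0752 with protein-coding genes and 0.13 with voom. The Junb interaction became 0.0172 with protein-coding genes, and ranged from -0.0183 to 0.0157 when a replicate was left out. In all, 833 of 840 differences kept their sign and side of the call when a replicate was left out, as did 704 of 760 under the other settings. Depth limited Fosl1 most, with 691 fragments in its lowest sample.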
